A study of Mus musculus with 27 samples.

Results

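The genes of class I antigen presentation were described across 9 groups of mouse fibroblast cultures. The members were 9 genes, taken by symbol: Psmb8, Psmb9, Psmb10, Tap1, Tap2, Tapbp, B2m, Nlrc5 and H2-Q5. A member was read from the probe set that carries its symbol and no other, and from the brightest one where several do. All 9 were found among the 19938 genes measured in this way. A single probe set carried the symbol of each member except Nlrc5, which had 19.

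RNA was collected at Day 3 from 27 cultures, 3 per group, and each culture was hybridized to 1 Affymetrix Mouse Gene 1.0 ST array. Mouse embryonic fibroblasts (MEFs), grown from mid-gestation embryos of mixed background after the head and viscera were removed, either carried 5 cardiac transcription factors together (HNGMT: Gata4, Hand2, Mef2c, Nkx2.5 and Tbx5) or did not (0TF), and received the DMSO vehicle, 0.5 µM SB431542 (SB) or 2 ng per mL TGFβ1 from Day -1. Cardiac fibroblasts (CFs), from adult mice of 8 to 12 weeks, carried HNGMT and received DMSO, 5 µM SB or 2 ng per mL TGFβ1. SB blocks the kinase of the type I TGFβ receptor, and TGFβ1 is a ligand of that receptor. The factors came on lentiviruses under a doxycycline promoter, together with rtTA and a Troponin T-GCaMP reporter, and 2 µg per mL doxycycline was added at Day 0. One label field gives 0TF as an empty vector and another as no factor at all, so the number of viruses a culture received and the factors themselves cannot be told apart. The protocol text of the CF labels describes MEFs.

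Class I molecules carry peptides from the inside of a cell to its surface, where CD8 T cells read them. The peptides are cut by the proteasome, whose catalytic subunits can be exchanged for the interferon-inducible subunits encoded by Psmb8, Psmb9 and Psmb10 to form the immunoproteasome. Tap1 and Tap2 form the pump that moves peptides into the endoplasmic reticulum, Tapbp (tapasin) holds empty class I molecules at that pump, and B2m is the light chain of every classical class I molecule. Nlrc5 is the transactivator of class I promoters, and H2-Q5 belongs to the H2-Q group of non-classical class I heavy chain genes. Fibroblasts express this machinery at a basal level and raise it in response to interferons.

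Of the 9 members, 6 lie on chromosome 17, in or near the mouse major histocompatibility complex (GRCm38.p6, RefSeq). Psmb9, Tap1, Psmb8 and Tap2 stand side by side between 34182030 and 34216321, a stretch of 34.3 kb. Tapbp lies at 33919478 to 33929290 and H2-Q5 at 35394099 to 35395630 of the same chromosome, and RefSeq lists H2-Q5 as a transcribed pseudogene. H2-Q genes are near-identical in places, so the H2-Q5 value may hold signal from its relatives. B2m lies on chromosome 2 at 122147687 to 122153082. Psmb10 (105935728 to 105938392) and Nlrc5 (94434335 to 94527272) lie on chromosome 8.

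Promoter windows, from 250 bases before to 50 bases after a gene's start, were listed by RefSeq for 6 of the 9 members and not for Tap2, Nlrc5 and H2-Q5. Tap1 and Psmb9 are transcribed away from each other from starts 226 bases apart, and their windows share 275 bases. The windows printed are those of the shared Tap1 and Psmb9 promoter, of Psmb8, which fell most with TGFβ1 in 0TF MEFs, of Tapbp, whose response differed most with HNGMT, and of B2m, which fell least. Capitals mark matches, on either strand, to 5 motifs: the interferon element ISRE (GAAA, any 2 bases, GAAA), the STAT element GAS (TTC, any 3 bases, GAA), the CCAAT box (CCAAT), the CRE core (TGACG) and the SMAD box (CAGAC).
Tap1, chr17:34187306-34187605, plus strand: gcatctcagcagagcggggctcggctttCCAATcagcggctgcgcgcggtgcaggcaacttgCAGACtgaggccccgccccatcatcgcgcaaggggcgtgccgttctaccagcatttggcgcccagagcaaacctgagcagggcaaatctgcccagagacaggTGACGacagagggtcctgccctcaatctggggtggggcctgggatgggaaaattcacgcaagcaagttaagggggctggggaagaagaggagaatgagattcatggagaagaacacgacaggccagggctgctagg
Psmb8, chr17:34197945-34198244, plus strand: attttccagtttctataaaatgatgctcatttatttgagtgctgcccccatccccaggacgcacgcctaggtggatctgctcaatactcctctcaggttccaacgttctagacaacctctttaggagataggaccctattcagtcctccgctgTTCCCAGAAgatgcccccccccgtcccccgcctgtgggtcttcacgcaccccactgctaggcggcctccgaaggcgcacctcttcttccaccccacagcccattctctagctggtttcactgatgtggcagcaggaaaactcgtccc
Tapbp, chr17:33919228-33919527, plus strand: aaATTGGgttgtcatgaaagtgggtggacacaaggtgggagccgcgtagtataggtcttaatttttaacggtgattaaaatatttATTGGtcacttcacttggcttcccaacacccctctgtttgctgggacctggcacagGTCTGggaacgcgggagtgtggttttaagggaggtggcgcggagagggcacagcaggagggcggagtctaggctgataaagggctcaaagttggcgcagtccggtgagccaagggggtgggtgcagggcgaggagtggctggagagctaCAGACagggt
B2m, chr2:122147437-122147736, plus strand: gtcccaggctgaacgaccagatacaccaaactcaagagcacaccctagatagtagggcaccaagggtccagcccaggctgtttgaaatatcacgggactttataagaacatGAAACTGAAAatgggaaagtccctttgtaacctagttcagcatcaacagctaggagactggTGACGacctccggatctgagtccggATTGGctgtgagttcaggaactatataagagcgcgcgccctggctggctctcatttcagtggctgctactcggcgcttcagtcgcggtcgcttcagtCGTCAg

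The ISRE letters were found in 1 of the 6 windows, that of B2m, and in 3.4% of the 32851 windows of the RefSeq table. The GAS letters were found in the Psmb8 window alone, against 8.3% of all windows. CCAAT was found in 4 of the 6 windows (B2m, Tapbp, Psmb9 and Tap1) and in 37.4% of all. TGACG was found in 3 (B2m, Psmb9 and Tap1) and in 20.8% of all. CAGAC was found in 3 (Tapbp, Psmb9 and Tap1) and in 49.6% of all. The Psmb10 window held none of the 5. Within a window, none of the matches overlapped another. The 3 matches in the Psmb9 window are the same bases as the 3 in the Tap1 window, read on the other strand, so the counts of the CCAAT box, the CRE core and the SMAD box each hold this shared promoter as 2 windows. A match describes letters in a window and is not a bound site.

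Values are log2 intensities as deposited, so a difference of 1 is a doubling, and the probe sets of different genes are not compared with each other. Calls needed an adjusted p under 0.05 in limma (Benjamini-Hochberg over the 19938 genes) together with a change of at least 0.58 on the log2 scale (1.5-fold) in MEFs or 0.32 in CFs, the fold thresholds of the study. The spread between cultures is given as mean ± SD (n = 3). The labels present the 3 cultures as independent replicates. The median of an array was 7.83 to 7.91 for MEFs and 7.36 to 7.43 for CFs, and levels were therefore not tested between the cell types. No member fell below the 40th percentile of its array on any array, but Psmb8 came down to the 40.2nd percentile on its lowest array. Whether falls of Psmb8 are cut short near that level was not tested. B2m stood at the 99.6th percentile or above on all 27 arrays, close to the brightest values of the arrays (14.24 to 14.64), and whether its changes are compressed there was not tested.

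The cultures were checked against markers of other cells. Of 17 leukocyte markers, 11 to 16 lay below the 40th percentile on all arrays of a group, and Ptprc (CD45) did so in each of the 9 groups. Of 18 endothelial markers, 10 to 12 lay below that percentile on all arrays of an MEF group, Pecam1 and Cdh5 among them in each. None of the 18 did so in any CF group. Fibroblast markers averaged 11.54 to 12.52 in MEF cultures and 10.55 to 11.07 in CF cultures. CF HNGMT+SB replicate 3 stood apart from its group, with an endothelial mean of 9.21 beside 10.66 and 10.68 and a fibroblast mean of 11.07 beside 10.56 and 10.55.

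**Figure D1:**
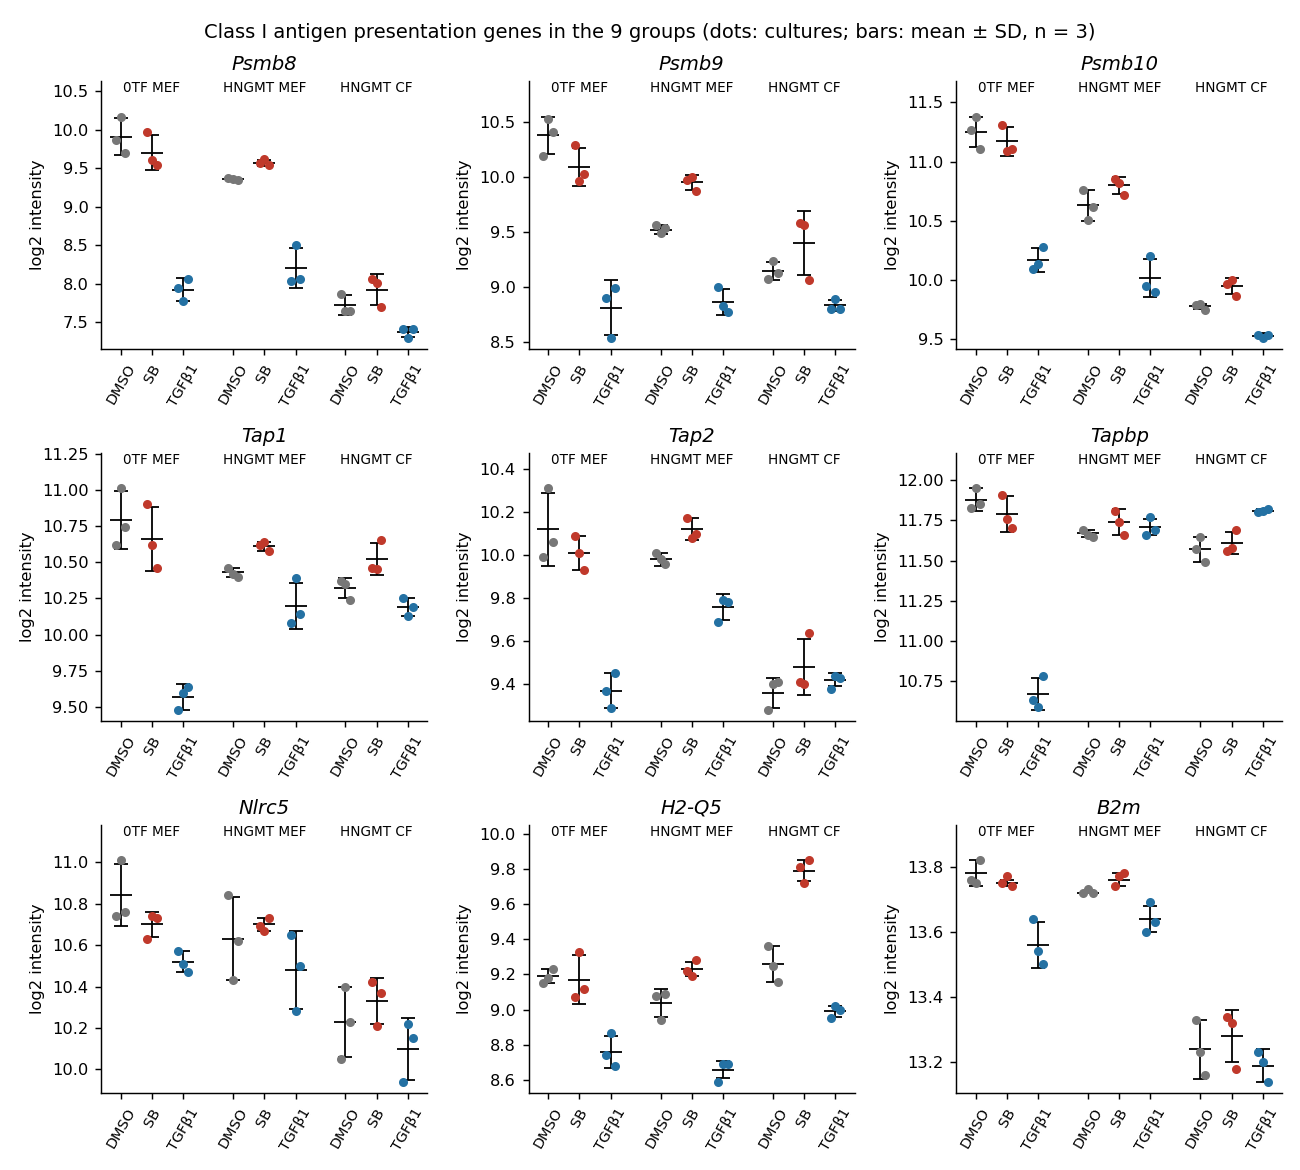
Log2 intensity of the 9 genes (y axis, a separate scale in each panel) in each culture (dots) of the 9 groups (x axis), with group mean ± SD (n = 3). In 0TF MEFs the 3 TGFβ1 cultures lay below all DMSO cultures for all 9 genes. Tapbp in HNGMT MEFs ran from 11.65 to 11.81 over the DMSO, SB and TGFβ1 groups together.

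TGFβ1 lowered the immunoproteasome subunits, the peptide pump and tapasin in MEFs without the factors. Of the 9 members, 6 were called lower, against 6.19% of all genes, and none was called higher. The other 3 members (H2-Q5, Nlrc5 and B2m) passed the adjusted p, with falls under 1.5-fold. All 9 passed the adjusted p as lower, as did 19.4% of all genes, and for all 9 the TGFβ1 cultures lay below the DMSO cultures without overlap, as for 22.1% of all genes. The median change of the members was -1.08 on the log2 scale and that of all genes was 0.05. Because bulk RNA was measured, fewer cells with a transcript and less of it per cell cannot be told apart. Of 16 fibroblast markers, 4 were called lower and 1 higher in the same comparison, and their mean went from 12.44 to 12.49 with DMSO to 12.26 to 12.32 with TGFβ1. Their part in the members' changes was not tested.

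Psmb8, which replaces the chymotrypsin-like subunit of the constitutive proteasome, moved most. Its level was 9.86, 10.17 and 9.70 in the DMSO cultures and 7.94, 7.77 and 8.06 in the TGFβ1 cultures of 0TF MEFs. The groups were separated by far more than the spread within either. Psmb8 fell by 1.99 ± 0.13 on the log2 scale (SE of the fit), a 3.96-fold change (adjusted p = 6.34e-10 by limma).

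Psmb9, which replaces the caspase-like subunit, was at 10.19, 10.53 and 10.41 with DMSO and at 8.90, 8.53 and 8.99 with TGFβ1. It fell 2.97-fold (log2 change -1.57 ± 0.11, adjusted p = 1.35e-09), and no culture of one group reached the other. Psmb10, which replaces the trypsin-like subunit, was at 11.27, 11.38 and 11.11 with DMSO and at 10.09, 10.14 and 10.28 with TGFβ1. It fell 2.12-fold (log2 change -1.08 ± 0.09, adjusted p = 1.08e-08).

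Both pump genes were lower too. Tap1 was at 10.62, 11.01 and 10.74 with DMSO and at 9.48, 9.60 and 9.64 with TGFβ1, a 2.33-fold fall (log2 change -1.22 ± 0.10, adjusted p = 1.73e-08). Tap2 was at 9.99, 10.31 and 10.06 with DMSO and at 9.37, 9.29 and 9.45 with TGFβ1, a 1.68-fold fall (log2 change -0.75 ± 0.07, adjusted p = 3.91e-08). Tapbp, the tapasin gene, was at 11.83, 11.95 and 11.85 with DMSO and at 10.63, 10.59 and 10.78 with TGFβ1. Its cultures within a group lay closer together than those of Tap1 with DMSO, and it fell 2.32-fold (log2 change -1.21 ± 0.06, adjusted p = 9.76e-12).

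B2m and H2-Q5 changed by less than 1.5-fold. B2m was at 13.76, 13.75 and 13.82 with DMSO and at 13.64, 13.54 and 13.50 with TGFβ1, a change of -0.22 ± 0.04 (adjusted p = 8.74e-05). H2-Q5 was at 9.15, 9.18 and 9.23 with DMSO and at 8.74, 8.87 and 8.68 with TGFβ1, a change of -0.42 ± 0.06 (adjusted p = 1.95e-05). In both genes the groups did not overlap, although the falls were 1.17-fold and 1.34-fold. Heavy chains outside the 9 members were measured for 11 of 21 listed genes, and H2-K1 and H2-D1 were not analysed here because no probe set carries either symbol alone. Of the 11, 3 were called lower with TGFβ1 in 0TF MEFs, against 6.19% of all genes, and none higher. These were H2-Q4, a further H2-Q gene (-2.28 ± 0.12, adjusted p = 2.1e-11), H2-M3, which presents N-formylated peptides (-1.02 ± 0.06, adjusted p = 1.09e-10), and H2-T24 (-0.63 ± 0.11, adjusted p = 0.00014). H2-T24 lay below the 40th percentile in all DMSO cultures already, as did H2-Q10, H2-M2 and H2-M5. The median over the 11, these 4 dim genes included, was -0.06.

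The size of the Nlrc5 change depended on which of its 19 probe sets was read. The brightest one, with a mean of 10.50 over the 27 arrays, was at 10.74, 11.01 and 10.76 with DMSO and at 10.57, 10.51 and 10.47 with TGFβ1 in 0TF MEFs. It was lower by 0.32 ± 0.10 (adjusted p = 0.0105), short of 1.5-fold. All 19 were lower with TGFβ1, 16 passed the adjusted p and 10 were called, where 19.4% and 6.19% of all genes were lower by these rules. The 19 probe sets read 1 gene, so they are not independent observations in this or any other comparison. Their changes ran from -1.73 to -0.04 with a median of -0.63, and the mean of all 19 fell by 0.72 ± 0.08 (adjusted p = 4.42e-07), past the fold threshold. The probe set with the largest fall had a mean of 8.32.

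**Figure D2:**
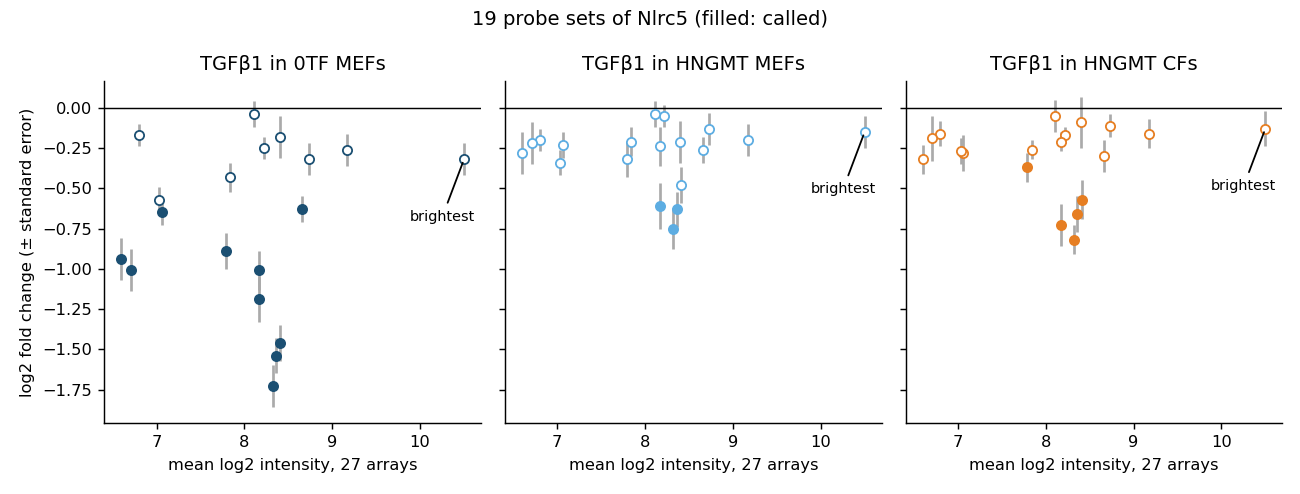
Log2 change with TGFβ1 (y axis, ± standard error of the fit) of each of the 19 Nlrc5 probe sets against its mean log2 intensity over the 27 arrays (x axis), in 0TF MEFs, HNGMT MEFs and HNGMT CFs. Filled points were called (10, 3 and 5 probe sets). All points lie below 0, and the brightest probe set is among the smaller changes in 0TF MEFs.

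With HNGMT present, TGFβ1 changed fewer of these genes in MEFs. The 3 immunoproteasome subunits were called lower, 3 of 9 members against 3.54% of all genes, and the pump genes and tapasin were not called. The median change of the members was -0.23, and that of all genes was 0.02. By adjusted p alone 5 of 9 members were lower, as were 14.3% of all genes. For 7 of 9 the TGFβ1 cultures lay below the DMSO cultures without overlap, against 16.2% of all genes. In the same comparison 4 of 11 cardiomyocyte markers were called lower and 1 higher, as were 4 and 0 of the 16 fibroblast markers, and their part was not tested.

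Psmb8 was at 9.37, 9.36 and 9.34 in HNGMT+DMSO MEFs and at 8.03, 8.50 and 8.06 in HNGMT+TGFβ1 MEFs. The TGFβ1 cultures were spread wider than the DMSO cultures but lay wholly below them, with a fall of 2.24-fold (log2 change -1.16 ± 0.13, adjusted p = 1.38e-06). Psmb9 was at 9.56, 9.49 and 9.53 with DMSO and at 9.0, 8.82 and 8.77 with TGFβ1 (-0.66 ± 0.11, adjusted p = 9.92e-05). Psmb10 was at 10.76, 10.51 and 10.62 with DMSO and at 9.95, 10.20 and 9.90 with TGFβ1 (-0.62 ± 0.09, adjusted p = 2.14e-05). The Psmb10 fall of 1.53-fold stood just past the fold threshold, and it was not called without HNGMT+DMSO replicate 1 (-0.55) or without HNGMT+TGFβ1 replicate 1 (-0.58) or replicate 3 (-0.56).

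Tapbp was at 11.69, 11.66 and 11.65 with DMSO and at 11.66, 11.77 and 11.69 with TGFβ1 in HNGMT MEFs. These cultures overlapped, and the change was 0.04 ± 0.06 with a 95% interval from -0.09 to 0.16. Tap1 was at 10.46, 10.42 and 10.40 with DMSO and at 10.08, 10.39 and 10.14 with TGFβ1 (-0.23 ± 0.10, adjusted p = 0.101). Tap2 was at 10.01, 9.98 and 9.96 with DMSO and at 9.69, 9.79 and 9.78 with TGFβ1, which passed the adjusted p without reaching 1.5-fold (-0.23 ± 0.07, adjusted p = 0.0122).

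H2-Q5 was at 9.08, 8.94 and 9.09 with DMSO and at 8.59, 8.69 and 8.69 with TGFβ1 (-0.38 ± 0.06, adjusted p = 9.2e-05). For B2m the values were 13.72, 13.73 and 13.72 with DMSO and 13.60, 13.69 and 13.63 with TGFβ1 (-0.08 ± 0.04, adjusted p = 0.11). The brightest Nlrc5 probe set changed by -0.15 ± 0.10 (adjusted p = 0.255), with overlapping cultures. All 19 Nlrc5 probe sets were lower and 3 were called, where 3.54% of all genes were called lower.

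The difference between the 2 responses to TGFβ1 was tested itself, as the interaction of TGFβ1 with HNGMT in MEFs. It was called for 4 of the 9 members, each with a smaller fall in HNGMT MEFs, against 4.68% of all genes. For Tapbp the difference was largest, 2.38-fold (95% interval from 1.08 to 1.43 on the log2 scale, adjusted p = 2.82e-09). Tap1 differed by 0.99 ± 0.15 (adjusted p = 3.96e-05), Psmb9 by 0.91 ± 0.15 (adjusted p = 0.000183) and Psmb8 by 0.83 ± 0.19 (adjusted p = 0.00208). By adjusted p alone 6 of 9 members differed in this direction, as did 15.4% of all genes. Tap2 (0.52 ± 0.09) and Psmb10 (0.47 ± 0.12) passed the adjusted p, at 0.000347 and 0.00762, without reaching 1.5-fold. For H2-Q5 the difference was 0.04 ± 0.09, with an interval from -0.15 to 0.23, and for B2m it was 0.14 ± 0.05 (adjusted p = 0.058).

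**Figure D3:**
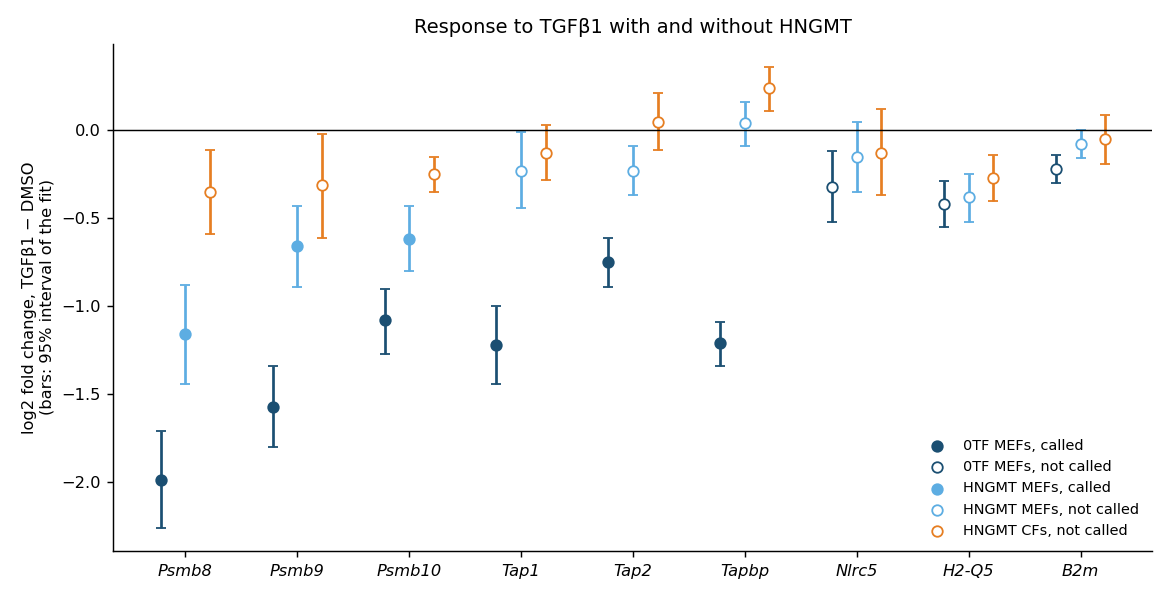
Log2 change with TGFβ1 against DMSO (y axis, bars the 95% interval of the fit) of each gene (x axis) in 0TF MEFs, HNGMT MEFs and HNGMT CFs. Filled points were called. Tapbp changed by -1.21 in 0TF MEFs, 0.04 in HNGMT MEFs and 0.24 in CFs, whereas the 3 values of H2-Q5 ran from -0.42 to -0.27.

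The part of this difference that lay in the DMSO cultures was seen by comparing HNGMT with 0TF directly under each molecule. These comparisons share cultures with those above. With DMSO, HNGMT MEFs had less Psmb9 (-0.85 ± 0.11, adjusted p = 4.23e-06) and less Psmb10 (-0.62 ± 0.09, adjusted p = 1.39e-05) than 0TF MEFs, 2 of 9 members called lower against 4.51% of all genes. Psmb8 (-0.55 ± 0.13, adjusted p = 0.00215), Tap1 (-0.36 ± 0.10, adjusted p = 0.00835) and Tapbp (-0.21 ± 0.06, adjusted p = 0.00736) passed the adjusted p alone, so that 5 of 9 members passed it as lower, against 18.9% of all genes. For 7 of 9 members the HNGMT cultures lay below the 0TF cultures without overlap, against 22.4% of all genes. The number called fell to 1 without 0TF+DMSO replicate 2 or HNGMT+DMSO replicate 2, where Psmb10 was at -0.56 in both cases. It rose to 3 without 0TF+DMSO replicate 3, where Psmb8 was at -0.66. Of the Nlrc5 probe sets, all 19 were lower with HNGMT and 5 were called. Cell type markers moved in the same comparison. Of 11 cardiomyocyte markers, 8 were called higher, against 4.56% of all genes, and none lower (median 1.22). Their mean was 7.59 to 7.73 in 0TF+DMSO and 9.46 to 9.55 in HNGMT+DMSO cultures. Nppa, an atrial peptide hormone, rose most, by 5.81 ± 0.08 (adjusted p = 1.06e-18), while Myh6 and Myl3 stayed below the 40th percentile. Of 16 fibroblast markers, 5 were called lower and 13 passed the adjusted p as lower (median -0.37), with a mean of 12.44 to 12.49 without HNGMT and 11.91 to 11.94 with it. The part of these markers in the members' differences was not tested.

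With TGFβ1, the direction for the pump and tapasin was the opposite one. Tapbp was higher in HNGMT+TGFβ1 than in 0TF+TGFβ1 MEFs by 1.04 ± 0.06 (2.06-fold, adjusted p = 7.33e-11) and Tap1 by 0.63 ± 0.10 (1.55-fold, adjusted p = 6.27e-05), 2 of 9 members called higher against 6.37% of all genes. Tap2 was higher by 0.39 ± 0.07 (adjusted p = 0.000121), short of 1.5-fold, and 3 of 9 members passed the adjusted p as higher, against 20.5% of all genes. Psmb8 (0.27 ± 0.13), Psmb9 (0.06 ± 0.11) and Psmb10 (-0.15 ± 0.09) did not pass, with adjusted p of 0.103, 0.712 and 0.172, and their cultures overlapped. Tap1 was not called without 0TF+TGFβ1 replicate 1 (0.58), without HNGMT+TGFβ1 replicate 2 (0.54) or after quantile normalization (0.56), so that Tapbp was then the single call. Under TGFβ1, 7 of 11 cardiomyocyte markers were called higher with HNGMT, against 6.37% of all genes, and under SB 10 of 11, against 5.04%. Of 16 fibroblast markers, 5 were called lower under TGFβ1, against 3.88% of all genes, and 6 under SB, against 4.81%. With SB, none of the 9 was called in either direction between HNGMT and 0TF MEFs, where 9.85% of all genes were called, and Psmb10 alone passed the adjusted p (-0.37 ± 0.09, adjusted p = 0.00194), as did 20.1% of all genes in that direction. Psmb10 was also the 1 member with an unadjusted p under 0.05 there.

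With SB in MEFs none of the 9 members was called. In 0TF MEFs the share of all genes called was 2.4%, and no member passed the adjusted p. Each of the 9 means was lower with SB than with DMSO, by 0.02 to 0.29, and the largest difference was that of Psmb9 (-0.29 ± 0.11, unadjusted p = 0.0182, adjusted p = 0.0929), the 1 member with an unadjusted p under 0.05. The SB cultures of Psmb9 were at 10.29, 9.96 and 10.03 and overlapped with the DMSO cultures. For 1 member the SB cultures lay below the DMSO cultures without overlap, against 14.7% of all genes. In HNGMT MEFs each of the 9 means was higher with SB, by 0.04 to 0.42, and the share of all genes called was 0.823%. For 6 of 9 members (B2m, Tap1, Tap2, Psmb8, Psmb9 and H2-Q5) the SB cultures lay above all DMSO cultures, against 11.1% of all genes. In the same comparison 5 of 11 cardiomyocyte markers were called higher, against 0.391% of all genes. Their mean was 9.87 to 10.29 in the SB cultures, and their part was not tested. Psmb9 was at 9.97, 10.00 and 9.87 with SB, above all 3 DMSO cultures, and passed the adjusted p without reaching 1.5-fold (0.42 ± 0.11, adjusted p = 0.0234), as did 3.34% of all genes in that direction. At an unadjusted p under 0.05, H2-Q5 was the other gene (0.19 ± 0.06, unadjusted p = 0.00773, adjusted p = 0.0837).

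The interaction of SB with HNGMT was called for Psmb9 alone among the 9 members, as for 0.893% of all genes in that direction. The response of Psmb9 to SB was higher in HNGMT than in 0TF MEFs by 0.71 ± 0.15 (adjusted p = 0.00613). For Psmb8 the difference was 0.42 ± 0.19 (adjusted p = 0.224) and for Tap1 it was 0.31 ± 0.15 (adjusted p = 0.261). Outside the members, H2-Q4 behaved in this way too (0.68 ± 0.17, adjusted p = 0.0128).

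**Figure D4:**
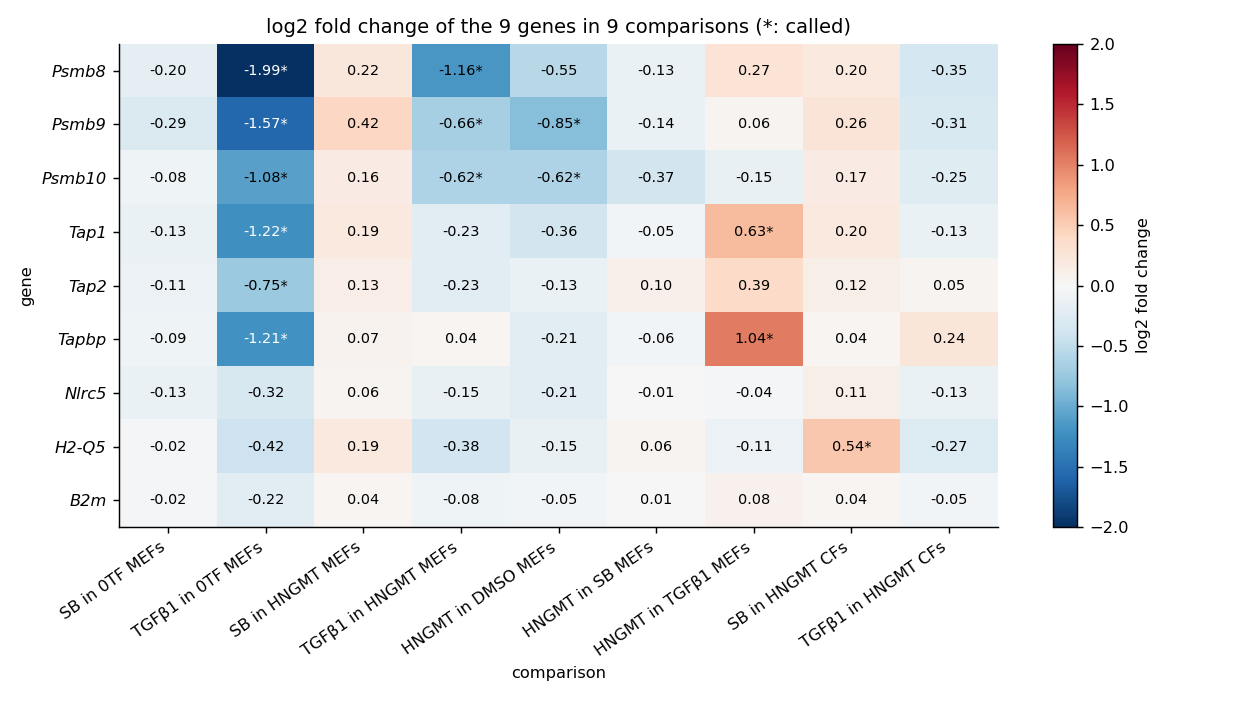
Log2 fold change (colour and printed value) of the 9 genes (rows) in the 9 direct comparisons (columns), with an asterisk where the gene was called. The column of TGFβ1 in 0TF MEFs holds 6 calls, and both SB columns of MEFs hold none. Columns that share a control group are not independent.

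The order of the 6 MEF groups differed between members. Psmb8 and Psmb9 ran in the same order, from 0TF+DMSO through 0TF+SB, HNGMT+SB, HNGMT+DMSO and HNGMT+TGFβ1 to 0TF+TGFβ1. Among their neighbours, the first 3 groups overlapped in turn and the 2 TGFβ1 groups overlapped. For Tapbp, 5 groups with means of 11.67 to 11.88 overlapped in turn, and 0TF+TGFβ1 lay apart at 10.67 ± 0.10. For Psmb10, 0TF+TGFβ1 (10.17 ± 0.10) and HNGMT+TGFβ1 (10.02 ± 0.16) came last and overlapped. H2-Q5 was highest in HNGMT+SB (9.23 ± 0.04), but its first 4 groups overlapped in turn. In all 18 MEF arrays, the correlation of a member with the mean of the other members was highest for Psmb8 (r = 0.977) and lowest for Nlrc5 (r = 0.669), and for Tapbp it was 0.762. These values describe arrays that share 6 group means and are given with no test.

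In HNGMT CFs, TGFβ1 moved the members less, and none was called, against 5.32% of all genes. By adjusted p alone, 2 members (Psmb10 and H2-Q5) were lower, against 3.37% of all genes, and 1 (Tapbp) was higher, against 4.51% of all genes. Cultures did not overlap for 4 members that were lower and 1 that was higher, against 16.5% and 16.4% of all genes. At an unadjusted p under 0.05 there were 5, Psmb8 and Psmb9 among them, but the share of all genes at that p was not counted. Psmb10 was at 9.79, 9.80 and 9.75 with DMSO and at 9.54, 9.51 and 9.54 with TGFβ1 (-0.25 ± 0.04, adjusted p = 0.0106). H2-Q5 was at 9.36, 9.25 and 9.16 with DMSO and at 8.95, 9.02 and 9.0 with TGFβ1 (-0.27 ± 0.06, adjusted p = 0.0279). In both, no culture overlapped between the groups.

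Tapbp went the other way in CFs. It was at 11.57, 11.65 and 11.49 with DMSO and at 11.80, 11.81 and 11.82 with TGFβ1, higher by 0.24 ± 0.05 (adjusted p = 0.0346), a change of 1.18-fold. Psmb8 was at 7.86, 7.65 and 7.64 with DMSO and at 7.41, 7.29 and 7.41 with TGFβ1 (-0.35 ± 0.11, adjusted p = 0.0919). Psmb9 was at 9.07, 9.23 and 9.12 with DMSO and at 8.80, 8.89 and 8.80 with TGFβ1 (-0.31 ± 0.13, adjusted p = 0.203). Neither pair of groups overlapped, yet neither change passed. When the 3 SB cultures, among them the replicate that stands apart, were left out of the fit, Psmb8 was called (-0.35 ± 0.07, adjusted p = 0.0164). Tap1 (-0.13 ± 0.07), Tap2 (0.05 ± 0.07), Nlrc5 (-0.13 ± 0.11) and B2m (-0.05 ± 0.06) had adjusted p of 0.345, 0.781, 0.614 and 0.762. Of the 19 Nlrc5 probe sets, all were lower with TGFβ1 and 5 were called, at the lower threshold used for CFs. By that threshold 2.2% of all genes were called lower. Endothelial markers moved with TGFβ1 in CFs, from a mean of 10.45 to 10.47 with DMSO to one of 9.89 to 9.92, and their part in the changes was not tested.

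TGFβ1 was given at 2 ng per mL in both cell types, and its effect was compared between HNGMT CFs and HNGMT MEFs in 1 fit of all 27 arrays. Psmb8 was the single member called, with a smaller fall in CFs by 0.81 ± 0.19 (adjusted p = 0.00375), as for 2.68% of all genes in that direction. In CFs Psmb8 was at 7.64 to 7.86 with DMSO and at 7.29 to 7.41 with TGFβ1, where the 40th percentile of the arrays was 7.2 to 7.32. Whether its fall in CFs is cut short at that level was not tested. Psmb10 passed the adjusted p alone (0.37 ± 0.11, adjusted p = 0.0292), and 2 of 9 members passed it in this direction, against 6.71% of all genes. For Tapbp the difference was 0.20 ± 0.08 (adjusted p = 0.117) and for Psmb9 it was 0.35 ± 0.18 (adjusted p = 0.212). The cell types also differ in age and tissue of origin, in endothelial markers and in the level of the arrays, which cannot be told apart from one another. Endothelial markers averaged 10.45 to 10.47 in HNGMT+DMSO CFs and 7.60 to 7.67 in HNGMT+DMSO MEFs, and their part was not tested.

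H2-Q5 was the 1 member called with SB in CFs, at 5 µM. Its SB cultures were at 9.81, 9.72 and 9.85, above the 3 DMSO cultures, and it rose by 0.54 ± 0.06 (1.45-fold, adjusted p = 0.0135), 1 of 9 members against 0.0451% of all genes called higher. For 3 members (H2-Q5, Tap1 and Psmb10) the SB cultures lay above all DMSO cultures, against 3.8% of all genes. Each of the 9 means was higher with SB, by 0.04 to 0.54. All 19 Nlrc5 probe sets were higher too (median 0.31), and 1, not the brightest, was called (0.61 ± 0.09, adjusted p = 0.0425). In HNGMT MEFs with 0.5 µM SB the change of H2-Q5 was 0.19 ± 0.06, and the doses differ. The H2-Q5 call was lost, with an adjusted p of 0.0814, when the replicate number was a block. It was also lost without the TGFβ1 cultures (0.147), without DMSO replicate 2 (0.0808) or replicate 3 (0.105), and without SB replicate 1 (0.0595). Its size stayed between 0.49 and 0.59 whichever culture was left out. SB replicate 3, which stood apart in other genes, had the highest H2-Q5 value.

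SB replicate 3 did weigh on the immunoproteasome. Psmb9 was at 9.58, 9.56 and 9.06 in the SB cultures of CFs, where the last value is that replicate and lies just under the DMSO range of 9.07 to 9.23. Psmb8 was at 8.06, 8.01 and 7.69. With all cultures Psmb9 changed by 0.26 ± 0.13 (adjusted p = 0.896), and without replicate 3 it was called (0.43 ± 0.05, adjusted p = 0.0056), so that 2 members were then called. Tap1 (10.46, 10.45 and 10.65) and Tap2 (9.41, 9.40 and 9.64) were highest in the same replicate. Endothelial markers differed in it too, as given above, and their part was not tested.

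The immunoproteasome subunits were set beside the constitutive subunits that they replace, Psmb5, Psmb6 and Psmb7. With TGFβ1 in 0TF MEFs the constitutive genes moved up, all under 1.5-fold: Psmb5 by 0.26 ± 0.05 (adjusted p = 0.000132), Psmb6 by 0.49 ± 0.08 (adjusted p = 8.45e-05) and Psmb7 by 0.36 ± 0.05 (adjusted p = 2.67e-06). The difference of Psmb8 from Psmb5 within an array therefore changed by -2.25, that of Psmb9 from Psmb6 by -2.06 and that of Psmb10 from Psmb7 by -1.45, with no overlap of cultures. In HNGMT MEFs the same changes with TGFβ1 were -1.34, -0.89 and -0.77, and in CFs -0.51, -0.59 and -0.36, again without overlap. Between HNGMT and 0TF MEFs with DMSO they were -0.76, -1.29 and -1.04. Over the 14 constitutive subunits of the 20S core, 13 were higher by adjusted p with TGFβ1 in 0TF MEFs, against 27.5% of all genes, and 14 with HNGMT under DMSO, against 21.6%. None reached 1.5-fold, and the medians were 0.28 and 0.31 beside 0.05 and -0.01 over all genes.

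**Figure D5:**
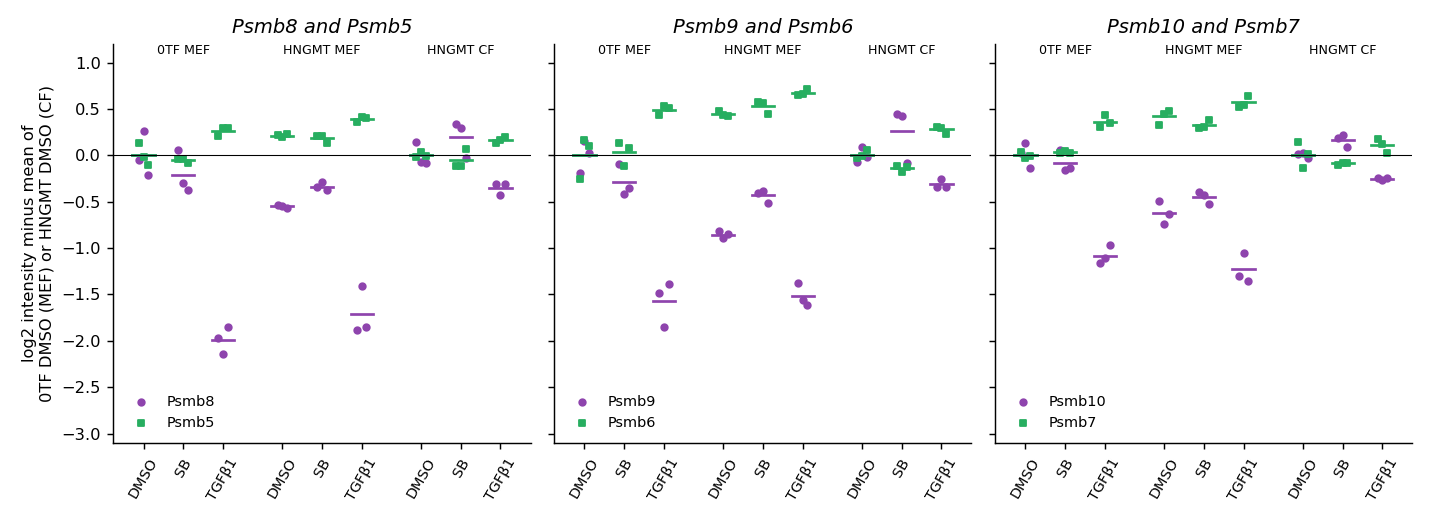
Log2 intensity of each immunoproteasome subunit (circles) and of the constitutive subunit it replaces (squares), minus the gene's mean in 0TF+DMSO for MEFs or in HNGMT+DMSO for CFs (y axis), in the cultures of each group (x axis), with lines at group means. Psmb8, Psmb9 and Psmb10 lie below 0 in both TGFβ1 groups of MEFs, and Psmb5, Psmb6 and Psmb7 lie above 0 there.

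The proteasome activator PA28, whose subunits Psme1 and Psme2 open the core for peptide release, was read beside the immunoproteasome. With TGFβ1 in 0TF MEFs Psme1 was called lower (-0.61 ± 0.08, adjusted p = 4.66e-06) and Psme2 passed the adjusted p alone (-0.38 ± 0.07, adjusted p = 0.000195). Of the 7 activator and assembly genes, 1 was called there, a share near the 10.4% of all genes called in either direction. In HNGMT MEFs none of the 7 was called with TGFβ1, and Psme1 changed by -0.27. In CFs Psme1 was called lower with TGFβ1 (-0.36 ± 0.08, adjusted p = 0.0301), at the lower threshold used there. Psme2 there changed by 0.02 ± 0.06.

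Among 9 measured genes of peptide loading and trimming outside the members, 1 was called with TGFβ1 in 0TF MEFs. That share was near the 10.4% of all genes called in either direction. Erap1, the aminopeptidase that trims peptides in the endoplasmic reticulum, was at 9.75, 9.71 and 9.76 with DMSO and at 8.62, 8.70 and 8.69 with TGFβ1 (-1.07 ± 0.07, adjusted p = 1.31e-09). In HNGMT MEFs it was at 9.66, 9.95 and 9.75 with DMSO and at 9.51, 9.82 and 9.69 with TGFβ1. That change was -0.11 ± 0.07 (adjusted p = 0.286), and the interaction was called (0.96 ± 0.11, adjusted p = 1.47e-06), as it was for Tapbp. In CFs Erap1 changed by 0.07 ± 0.10 with TGFβ1 (adjusted p = 0.809).

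H2-Q4 was called lower by TGFβ1 in all 3 settings, with changes of -2.28 in 0TF MEFs, -1.42 in HNGMT MEFs (adjusted p = 2.62e-08) and -0.59 in CFs (adjusted p = 0.00474). Its cultures were at 9.41, 9.66 and 9.58 with DMSO and at 7.04, 7.34 and 7.43 with TGFβ1 in 0TF MEFs. Cd1d1, which presents lipids, was called higher with SB in 0TF MEFs (0.62 ± 0.07, adjusted p = 3.97e-06), the single call with SB among the 11 heavy chain genes outside the members. In that comparison 2.4% of all genes were called. H2-M3 was called lower in HNGMT than in 0TF MEFs with DMSO (-0.66 ± 0.06, adjusted p = 4e-08).

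Of 13 measured regulators of these promoters, 1 was called with TGFβ1 in 0TF MEFs, a share near the 6.19% of all genes called lower. By adjusted p alone 11 were lower and 2 higher, against 19.4% and 27.5% of all genes. The gene called was Irf1, a transcription factor that binds ISRE elements (-0.75 ± 0.08 on the log2 scale in 0TF MEFs, adjusted p = 1.71e-07). Irf1 changed in HNGMT MEFs by -0.22 ± 0.08 (adjusted p = 0.0297), and in CFs by -0.06 ± 0.06 (adjusted p = 0.647). In CFs the 1 regulator called with TGFβ1 was Irf2, a relative of Irf1 (-0.57 ± 0.10, adjusted p = 0.0137). Irf2 also passed the adjusted p in 0TF MEFs (-0.53 ± 0.05, adjusted p = 1.68e-07) and in HNGMT MEFs (-0.35 ± 0.05, adjusted p = 4.9e-05), short of 1.5-fold. Of 14 measured genes of interferon receptors and signalling, 3 were called lower and 1 higher with TGFβ1 in 0TF MEFs, against 6.19% and 4.21% of all genes. Irf9, the DNA-binding part of the complex that answers type I interferon, fell by 1.18 ± 0.10 in 0TF MEFs (adjusted p = 1.35e-08) and Stat2, its partner, by 1.91 ± 0.14 (adjusted p = 4.07e-09).

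Interferon-induced genes at large were lower with TGFβ1 in 0TF MEFs, as the members were. Of 40 measured, 37 were called lower and none higher with TGFβ1 in 0TF MEFs, with a median change of -1.81 beside 0.05 over all genes and against 6.19% of all genes called lower. In HNGMT MEFs 26 were called lower (median -1.02), against 3.54% of all genes, and in CFs 7 (median -0.48), against 2.2%, with none higher in either. The members moved less there, with medians of -0.23 in HNGMT MEFs and -0.13 in CFs. With HNGMT under DMSO 21 were called lower, against 4.51% of all genes, and 1 higher (median -0.69). With SB the counts were 2 lower in 0TF MEFs, against 1.13% of all genes, 3 higher in HNGMT MEFs, against 0.391%, and 0 in CFs. Of 8 measured interferon ligand genes, none was called in any of the 9 direct comparisons, with medians between -0.10 and 0.03. However, 6 of the 8 lay below the 40th percentile on all arrays of every group, where a change would be hard to see.

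Slfn5, Iigp1, Gbp3 and Sp100 were the interferon-induced genes called in most comparisons. Iigp1, an interferon-inducible GTPase, changed by -4.53 ± 0.23 with TGFβ1 in 0TF MEFs (adjusted p = 1.39e-11), by -1.46 ± 0.23 in HNGMT MEFs (adjusted p = 4.78e-05) and by -1.83 ± 0.39 in CFs (adjusted p = 0.0261). Of 13 measured genes of viral RNA and DNA sensing, 6 were called lower and none higher with TGFβ1 in 0TF MEFs. Of all genes, 6.19% were called lower and 4.21% higher there. Dhx58 had the lowest change of the 13 and fell by 3.70 ± 0.25 in 0TF MEFs (adjusted p = 8.23e-10), and it was called lower in HNGMT MEFs (-2.29) and CFs (-1.16) as well.

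Of 9 measured class II genes, none was called in either direction with TGFβ1 in 0TF MEFs. Among them, 6 to 8 lay below the 40th percentile on all arrays of a group, H2-Aa and Ciita doing so in every group. Cd74, the invariant chain, was called higher with TGFβ1 in HNGMT MEFs (0.73 ± 0.08, adjusted p = 6.41e-07) and in CFs (0.92 ± 0.15, adjusted p = 0.0101), and changed by 0.02 ± 0.08 in 0TF MEFs (adjusted p = 0.882). Adipocyte markers set 0TF+SB apart from the other MEF groups, at a mean of 10.72 to 10.83 beside 7.99 to 8.02 with DMSO, and none of the 9 members was called in that comparison.

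By the likeness of their pattern to the centred mean of the 9 members, the nearest of 5828 other genes over the 18 MEF arrays were Parp10 (r = 0.992), Nmi (0.987), Gm4951 (0.986), Parp14 (0.984), Rnf213 (0.984), Iigp1 (0.981), Gbp7 (0.981) and Gstt1 (0.98). Over the 9 CF arrays the nearest of 3408 were Tmem176a (0.977), Fabp4 (0.973), Tmem154 (0.97), Tnfrsf26 (0.969) and Bcl6b (0.964). The members themselves did not move as a set in CFs. The correlation of a member with the mean of the others was -0.661 for Tapbp and 0.198 for Tap2, and at most 0.951 (H2-Q5). No gene was in both lists, but each holds only the few nearest genes, so this says little about the cell types. Arrays of a cell type share group means, and the values are descriptions.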

How the data were processed

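RNA of 27 cultures in 9 groups of 3 was read on 1 array each, of the type Affymetrix Mouse Gene 1.0 ST. Log2 intensities of 35556 probe sets were deposited by the authors and were used without further scaling. The study's methods credit Microarray Suite 5.0 and PartekGS software, and MAS5 stands in the submitters' processing notes. The summarization and normalization settings are not given in the sources used here. If signals were compressed at the top of the scale, changes of bright genes such as B2m would read too small.

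By the platform annotation, 21789 probe sets carry 1 gene symbol, 1621 several and 12146 none. The brightest single-symbol probe set stood for each of 19938 genes, of which 999 had several. All 9 members were found. The 18 MEF arrays (12 residual degrees of freedom) and the 9 CF arrays (6) were fitted separately with limma 3.58.1 (lmFit and eBayes) in R 4.3.3, and the cell types were compared in a fit of all 27 arrays (18). There were 9 direct comparisons and 3 interactions, and interactions were called at 1.5-fold. P-values were adjusted over all genes. Members at an unadjusted p under 0.05 are given without the share of all genes at that p, which was not counted. The code was tested on simulated data. Promoters came from RefSeq (GRCm38.p6). Figures were drawn with Python 3.11.15 and matplotlib 3.10.9.

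The members and the gene lists were chosen with earlier results of these data known, and lists are described by counts and medians without a list test. All members were named, with the heavy chains, Irf1, Irf9, Psme1, Psme2 and Psmb5 to Psmb7. Of other lists, up to 4 genes called in most comparisons could be named, and the nearest genes by correlation needed an SD of at least 0.2. Alternatives varied the replicate block, the variance model, the normalization, the summary of probe sets, a filter at the 40th percentile, the arrays in the fit and each culture in turn. Probe sets with several symbols were left out.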

Additional observations from a re-analysis of the deposited data

Results flagged for a closer look

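The responses of some genes differed between groups by a test of the difference itself. In MEFs the fall with TGFβ1 was weaker with HNGMT than without it for Tap1 (by 1.99-fold), Psmb9 (by 1.88-fold) and Psmb8 (by 1.77-fold), and for Tapbp, which fell without HNGMT and changed by 0.04 on the log2 scale with it, the difference was 2.38-fold. Psmb9 changed with SB by -0.29 without HNGMT and by 0.42 with it, a difference of 1.63-fold. The fall of Psmb8 with TGFβ1 was weaker in HNGMT CFs than in HNGMT MEFs, by 1.76-fold. In CFs with TGFβ1, Psmb8 lay close to the 40th percentile of the arrays, and whether this limits its fall was not tested. These 6 differences were called under each alternative that was run. No group was large enough for a test of single outlying cultures.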

How the results depend on the processing

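All 6 calls with TGFβ1 in 0TF MEFs were kept under each of the alternatives run, the omission of any 1 culture included, and the mean of all Nlrc5 probe sets added Nlrc5 to them (-0.72). With the replicate number as a block, no member was called with SB in CFs (0 in place of 1), and no other count of calls changed by over 1.5 times. The numbers were not taken as pairs. In MEFs 9 of 45 same-number pairs of arrays correlated over 0.1, and 7 of 18 arrays correlated best with their own number. In CFs 4 of 9 pairs correlated over 0.1 (r from -0.25 to 0.65), and 5 of 9 arrays correlated best with their own number. With so few CF arrays, these values cannot decide whether the numbers are pairs there. With only the compared groups in the fit, 0 members were called with SB and 1 with TGFβ1 in CFs. With quantile normalization, 1 was called for HNGMT under TGFβ1, Psmb9 there went to -0.04 and the TGFβ1 by HNGMT interaction of H2-Q5 to -0.02. With the mean of all probe sets, Nlrc5 went to 0.02 for HNGMT under TGFβ1 and to -0.02 for TGFβ1 by cell type. None of these 4 was called in any setting, and the cause was not tested.

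Leaving out 1 culture at a time gave 1 to 3 calls for HNGMT under DMSO, 1 to 2 for HNGMT under TGFβ1 and 0 to 2 for SB in CFs. Uncalled values close to 0 crossed it: from -0.09 to 0.04 for H2-Q5 with SB in 0TF MEFs, from -0.08 to 0.15 for Psmb9 and from -0.13 to 0.06 for Nlrc5 with HNGMT under TGFβ1, and from -0.01 to 0.09 for the TGFβ1 by HNGMT interaction of H2-Q5. With HNGMT under SB the ranges were 0.00 to 0.02 for B2m, -0.15 to 0.07 for Tap1, -0.10 to 0.00 for Tapbp, -0.21 to 0.00 for Psmb8 and -0.04 to 0.01 for Nlrc5. The others were -0.03 to 0.17 for Nlrc5 with SB in HNGMT MEFs, 0.00 to 0.08 for Tapbp with SB in CFs, and -0.01 to 0.08 for B2m and -0.08 to 0.12 for Nlrc5 in TGFβ1 by cell type.

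With 3 cultures per group, changes under 1.5-fold in MEFs were never called whatever their p, and the CF fit left 6 residual degrees of freedom. Whether the high level of B2m, or the level of Psmb8 near the 40th percentile on some arrays, compresses their changes was not tested. The array reads 1 probe set for most members.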
